A study of Mus musculus with 9 samples.

Results

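Interferon-responding CD4 single-positive (SP) thymocytes are cells of the CD4+CD8- sort gate that carried RNA of genes switched on by interferon. They were chosen by a score, the summed unique molecular identifiers (UMIs, each standing for 1 captured RNA molecule) of Ifit1, Ifit3, Isg15, Rsad2, Oasl2 and Usp18, with 5 or more UMIs required. By this rule 1085 of the 5773 wild-type (WT) and I173A cells of the CD4 SP gate were members, out of 16884 such cells in the whole series. The members were 642 of 3109 WT cells and 443 of 2664 I173A cells. Because the score chose the cells, the values of its 6 genes, and of every other gene of the same cells set against the remaining cells, are given as descriptions with no test.

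The series profiled thymocytes of adult female mice by 10x Genomics 5′ single-cell RNA and T cell receptor (TCR) sequencing. The mice were WT or carried CD3ε I173A, an amino acid substitution in a chain that passes on TCR signals. Cells of both genotypes were marked with antibody-borne oligonucleotides (hashtag 4 for WT and hashtag 6 for I173A), sorted by CD4 and CD8 into CD4 SP, CD8 SP and double-positive (DP) cells, and each gate was run as 1 RNA library. No drug, cytokine or infection is named in the labels. The number of mice behind each hashtag, the age in weeks and whether other alleles were present are not given in the sources used here. Each genotype was therefore 1 sample of the gate, no difference has a replicate check, and all intervals below are 95% intervals that cover counting error only.

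Type I interferons bind the receptor chains IFNAR1 and IFNAR2, and the kinases JAK1 and TYK2 then activate the factor ISGF3, which contains STAT2 and IRF9. ISGF3 binds interferon-stimulated response elements in promoters and switches on genes for antiviral proteins, for sensors of foreign nucleic acid and for antigen presentation. In the thymus, interferon is made in the medulla without infection, and late CD4 SP and CD8 SP thymocytes are known to show its imprint before they leave.

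The promoters of the score genes are shown for matches to the element that ISGF3 and related factors are known to recognise. The pattern GAAA, any 2 bases, GAAA was searched on both strands of the 300 bases from 250 before to 50 after each gene start, in the RefSeq promoter set of GRCm38.p6. It was present in 4 of the 5 score genes with an entry (Ifit1, Ifit3, Isg15 and Rsad2), and Oasl2 had no match. The 200 bases before the start follow, 5′ to 3′ along the gene, with each match in capitals. A match on the opposite strand reads TTTC, any 2 bases, TTTC, as in Ifit1, Ifit3 and Rsad2.
Ifit1 (chr19:34640689-34640888, + strand): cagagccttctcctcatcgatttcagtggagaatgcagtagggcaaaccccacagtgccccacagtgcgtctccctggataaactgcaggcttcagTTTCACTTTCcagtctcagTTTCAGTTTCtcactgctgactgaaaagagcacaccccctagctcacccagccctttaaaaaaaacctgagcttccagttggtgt
Ifit3 (chr19:34583329-34583528, + strand): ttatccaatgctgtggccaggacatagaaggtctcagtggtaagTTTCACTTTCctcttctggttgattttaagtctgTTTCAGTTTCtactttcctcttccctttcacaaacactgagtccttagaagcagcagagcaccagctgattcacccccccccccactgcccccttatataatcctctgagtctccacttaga
Isg15 (chr4:156200819-156201018, - strand): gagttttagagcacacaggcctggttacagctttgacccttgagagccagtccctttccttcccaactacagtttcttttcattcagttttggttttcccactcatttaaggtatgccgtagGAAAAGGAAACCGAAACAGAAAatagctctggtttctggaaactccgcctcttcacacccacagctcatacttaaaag
Rsad2 (chr12:26456453-26456652, - strand): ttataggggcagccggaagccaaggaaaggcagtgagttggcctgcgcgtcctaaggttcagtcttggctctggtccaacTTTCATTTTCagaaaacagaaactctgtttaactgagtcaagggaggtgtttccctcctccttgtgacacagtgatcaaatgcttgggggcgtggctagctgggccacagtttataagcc
Ifit1 had matches beginning 104 and 85 bases before the start, and Ifit3 had them at 156 and 122 bases. In Isg15 the matches, at 78, 72 and 66 bases, overlapped to form a single run. Rsad2 had 1 match, 120 bases before the start.

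The same pattern was common among genes outside the score that were high in the members. Of the 20 genes with the highest ratio of members to other CD4 SP cells, 15 had a promoter entry and 10 of these held a match. Over all 27025 genes of the promoter set the share was 3.99% (1079 genes), and over the 6249 measured genes with an entry it was 3.90%. Examples from different families among these 10 are the oligoadenylate synthetase Oas1a, the GTPase Tgtp1 and the DNA-binding PYHIN protein Ifi206. Shown with them is Bst2 of the effector list, ranked below the 20, whose product holds budding virus at the cell surface.
Oas1a (chr5:120907526-120907725, - strand): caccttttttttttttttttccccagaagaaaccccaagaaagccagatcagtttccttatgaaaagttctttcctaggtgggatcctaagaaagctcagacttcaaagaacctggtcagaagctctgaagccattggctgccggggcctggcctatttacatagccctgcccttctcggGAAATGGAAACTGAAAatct
Tgtp1 (chr11:48992247-48992446, - strand): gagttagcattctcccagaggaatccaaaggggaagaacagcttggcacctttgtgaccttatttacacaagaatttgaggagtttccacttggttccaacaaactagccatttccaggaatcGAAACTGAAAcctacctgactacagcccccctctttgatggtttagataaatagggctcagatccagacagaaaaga
Ifi206 (chr1:173491319-173491518, - strand): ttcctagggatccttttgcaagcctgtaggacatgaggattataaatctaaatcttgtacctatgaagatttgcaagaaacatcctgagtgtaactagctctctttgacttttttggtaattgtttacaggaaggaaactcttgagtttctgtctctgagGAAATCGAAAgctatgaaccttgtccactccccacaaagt
Bst2 (chr8:71537473-71537672, - strand): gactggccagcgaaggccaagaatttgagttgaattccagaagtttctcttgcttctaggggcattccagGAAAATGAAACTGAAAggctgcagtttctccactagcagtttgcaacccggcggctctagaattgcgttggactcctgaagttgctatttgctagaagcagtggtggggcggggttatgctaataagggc
In Bst2 and Oas1a, as in Isg15, neighbouring matches shared bases. Among all 113 genes with an entry that were past a 1.5-fold ratio in the members of both genotypes, 41 (36.3%) held a match, against 1 of 20 (5%) among those past it in the lower direction. The lists of maturation and egress, semimature and TCR signal genes had no match in 12, 11 and 13 promoters. A match describes the letters in this window and is not evidence of a bound site.

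The 6 score genes differed in how often a member showed them. Isg15, which encodes a ubiquitin-like modifier, had at least 1 UMI in 96.9% of WT and 96.2% of I173A members. Ifit1, a protein that binds viral RNA, was seen in 80.4% and 79.7%, and Usp18, the protease that removes ISG15 and damps the receptor, in 63.2% and 61.9%. Oasl2 (45.8% and 39.1%), Ifit3 (32.1% and 27.8%) and Rsad2 (20.1% and 23.3%), which encodes viperin, were seen in fewer members. The commonest member had UMIs of 3 of the 6 genes (219 WT and 143 I173A members). All 6 were seen in 33 WT and 27 I173A members, and 37 and 27 members passed on 1 gene alone. Membership therefore rested mostly on Isg15 and Ifit1.

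The score formed a continuous range with no gap at the threshold. A score of 0 was found in 43.8% of WT and 51.4% of I173A cells, 5 to 9 in 10.2% and 8.26%, 10 to 19 in 6.69% and 5.63%, and 20 or more in 3.76% and 2.74%. The median member had a score of 10 in both genotypes, and the highest scores were 108 in WT and 56 in I173A. Just outside the threshold, at a score of 4, were 125 WT and 83 I173A cells, and just inside it, at 5, were 83 and 69. The 88 interferon genes outside the score (antiviral effectors, nucleic acid sensors, ISG15 conjugation genes, inducible GTPases and Schlafen genes) summed to 9241 CPM (UMIs per 1000000 UMIs of the group) in WT and 9142 in I173A cells with a score of 4, and to 9888 and 9592 with a score of 5. The members are thus the upper end of a range, and not a type set apart by a gap.

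**Figure D1:**
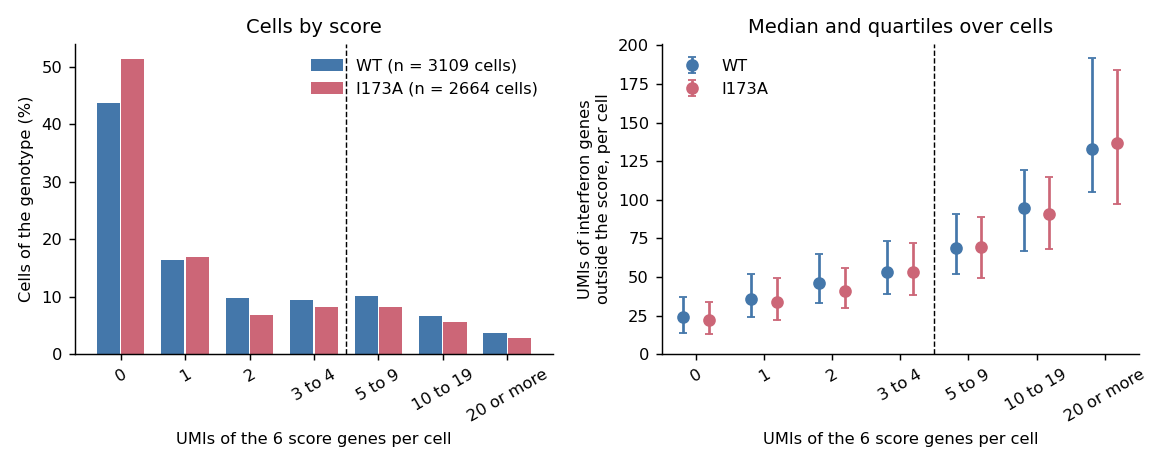
Cells of the CD4 SP gate by the summed UMIs of the 6 score genes (left, bars, percent of each genotype) and the UMIs per cell of 88 interferon genes outside the score (right, points are medians over cells and bars run from the lower to the upper quartile, not replicate error). The dashed line is the membership threshold; the outside genes go from a median of 24 UMIs (WT) and 22 (I173A) at a score of 0 to 133 and 137 at a score of 20 or more.

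Genes outside the score climbed with it, and they did so below the threshold as well. The 88 genes together went from 4574 CPM in WT and 4475 CPM in I173A cells with a score of 0, through 10517 and 9648 CPM at 5 to 9, to 18367 and 20070 CPM at 20 or more. At a score of 3 to 4, below the threshold, they stood at 8133 and 8663 CPM. Median UMIs per cell also went from 5641.5 and 5453.5 at a score of 0 to 7043 and 6608 at 20 or more, and the part of depth in these profiles was not tested.

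Individual genes followed different courses along the score. Rtp4, a chaperone of receptor transport with antiviral activity, went from 58.7 CPM at a score of 0 to 351 at 5 to 9 and 577 at 20 or more in WT, and from 60.9 to 349 and 548 in I173A. Most of its range was covered before the highest scores. Ifit3b, a close paralog of Ifit3, went from 1.48 to 31.1 and 216 CPM in WT and from 1.64 to 20.4 and 189 CPM in I173A. Cmpk2, a nucleotide kinase that lies beside Rsad2, went from 2.58 to 12.9 and 89.9 CPM in WT and from 2.27 to 15 and 86.2 CPM in I173A. Ifit3b rose 21.1-fold (WT) and 12.5-fold (I173A) from a score of 0 to 5 to 9, and 6.94 and 9.26-fold from there to 20 or more. Cmpk2 rose 4.99 and 6.62-fold, and then 6.97 and 5.74-fold. Irf9 was at 86.8, 174 and 192 CPM in WT and at 82.9, 157 and 227 CPM in I173A, so it differed little between the last of these ranges in WT and more in I173A. The MHC class I heavy chain gene H2-K1 was at 1611, 2302 and 2247 CPM in WT and at 1508, 2021 and 2123 CPM in I173A, a much smaller range. Reads of Ifit3 and Ifit3b, and of Tgtp1 and Tgtp2, could have been split between near-identical copies by the counter.

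**Figure D2:**
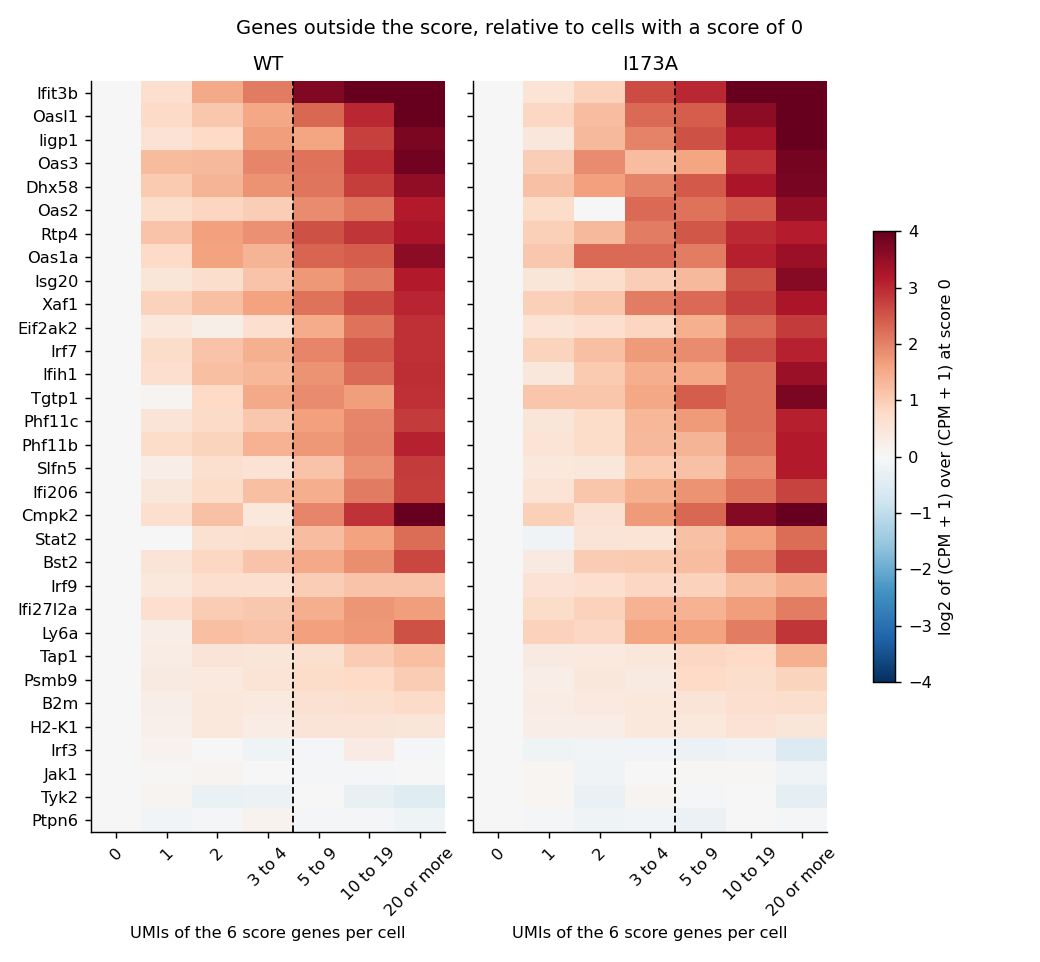
Genes outside the score (rows) over ranges of the score (columns) in WT and I173A CD4 SP cells, as log2 of CPM + 1 relative to cells with a score of 0; the colour scale stops at 4 and the dashed line is the membership threshold. Ifit3b, Cmpk2 and Oasl1 in both genotypes, and Iigp1 in I173A, reach the end of the scale at the highest scores. Ifit3b and Rtp4 are already dark at 5 to 9 (31.1 and 351 CPM in WT, against 1.48 and 58.7 at a score of 0). Irf3, Jak1, Tyk2 and Ptpn6 at the bottom stay pale.

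In the CD4 SP gate the responding share was lower in I173A than in WT cells. It was 20.6% in WT (interval 19.2 to 22.1) and 16.6% in I173A (15.2 to 18.1), a ratio of 0.805 (0.712 to 0.910). Members were deeper than the other cells, with median UMIs of 6707 against 5929 in WT and 6616 against 5649 in I173A. With every cell thinned to 3000 UMIs and a score of 3 required, which left out 220 WT and 171 I173A cells as too shallow, the shares were 20.2% and 15.3% and their ratio was 0.757 (0.664 to 0.863). Cells with any UMI of the 6 genes after thinning were 45.4% of WT and 38.6% of I173A cells, against 7.93% and 10.1% in the DP gate (median UMIs 2906.5 and 2750.5), where the share is lowest. The ratio lay between 0.747 and 0.856 under all 16 alternatives tried. Whether it would hold between mice was not tested, as 1 sample per genotype does not allow it.

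In the CD8 SP gate the shares of the 2 genotypes lay closer together. They were 16.8% (506 of 3017 WT cells) and 16.1% (462 of 2872 I173A cells), a ratio of 0.959 (0.844 to 1.09), and 15.0% and 15.1% after thinning (1.01, 0.876 to 1.16). The difference between the gates was not tested. In the DP gate only 15 of 2516 WT cells (0.596%) and 17 of 2706 I173A cells (0.628%) reached the score. After thinning, which left out 1343 and 1602 DP cells as too shallow, the DP shares were 1.53% (18 of 1173 cells) and 1.27% (14 of 1104 cells), a ratio of 0.826 (0.380 to 1.76). The 20 genes that were highest in CD4 SP members had ratios of 2.64 to 14.0 in WT and 2.35 to 15.1 in I173A between CD8 SP cells with and without the same score. The 10 lowest genes had CD8 SP ratios of 0.174 to 2.07 in WT and 0.277 to 1.07 in I173A, on both sides of 1.

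Responding cells were more frequent among mature cells of the gate. Maturity was read from a log2 index of a sum of 5 genes of late, emigrating cells (Klf2, S1pr1, Il7r and Ccr7 among them) over Ccr9, Cd24a, Itm2a, Tox, Sox4, Cd8a and Cd8b1 (genes of recently selected cells), none of which is in the score. In its lower tercile 11.5% of WT and 8.81% of I173A cells were members, in the middle tercile 23.3% and 19.8%, and in the upper tercile 26.2% and 22.4%. The step from the lower to the middle tercile was thus larger than the step above it, in both genotypes. Within terciles the I173A to WT ratio was 0.767 (0.572 to 1.03), 0.850 (0.695 to 1.04) and 0.856 (0.708 to 1.03), each with an interval that reached 1. After thinning it was 0.728 (0.539 to 0.981), 0.786 (0.634 to 0.972) and 0.816 (0.663 to 1.00). I173A cells were less often in the upper tercile (820 of 2664 cells, against 1099 of 3109 in WT). Weighted to the WT make-up of terciles, the unthinned I173A share was 17.3%, beside a WT share of 20.6%. The part of maturity in the difference between genotypes was not tested.

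**Figure D3:**
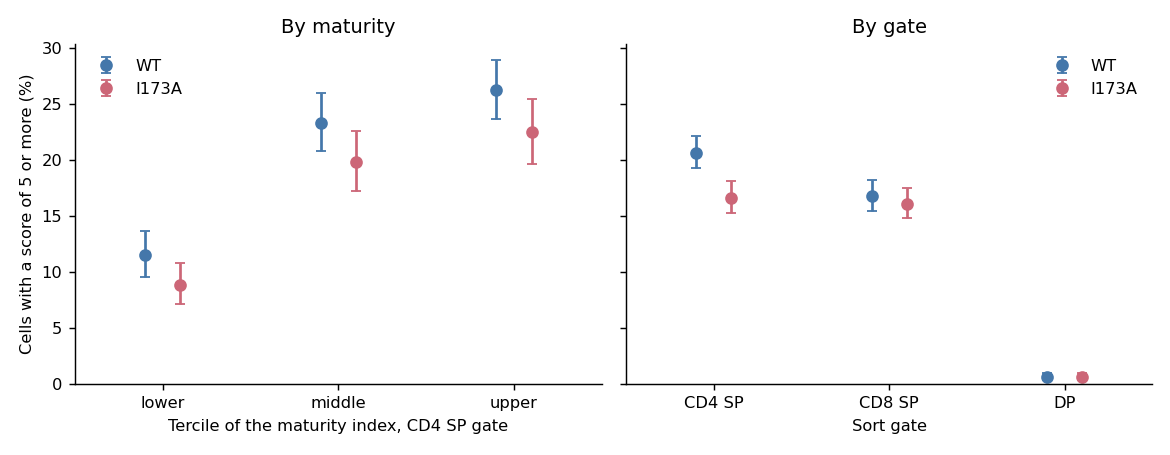
Percent of cells with a score of 5 or more by tercile of the maturity index in the CD4 SP gate (left) and by sort gate (right), for WT and I173A, with exact 95% intervals that cover counting error only. The share goes from 11.5% to 26.2% in WT and from 8.81% to 22.4% in I173A from the lower to the upper tercile, and is under 1% in the DP gate.

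The members carried the lineage genes of CD4 SP thymocytes. Cd4, Zbtb7b (the factor of CD4 lineage choice) and Cd40lg summed to 593 CPM in WT and 571 CPM in I173A members, against 639 and 643 CPM in the other cells. The 4 marker genes of the responding state, Ifit3, Isg15, Rsad2 and Usp18, are all part of the score and check nothing. Macrophage genes were at or near 0 in the members (2 UMIs in WT and 3 in I173A over 6 genes, with C1qa, C1qb and C1qc at 0 in both), as were conventional dendritic cell genes (1 UMI in each). Other lists were not near 0. The B cell list, led by Ighm, summed to 66.6 CPM in WT and 69.5 CPM in I173A members, against 73.9 and 69.4 CPM in the other cells. The CD8 lineage list, led by Cd8b1, summed to 79.5 and 107 CPM against 165 and 181 CPM. No haemoglobin or Alas2 UMI was found in the members, which allows up to 0.624 CPM in WT and 0.907 CPM in I173A. Of the 6 plasmacytoid dendritic cell genes, 4 were detected in members, while Siglech and Cox6a2 were at 0. Siglech was at 0 in the other WT cells too. The list was led by Bst2, itself induced by interferon, and summed to 496 CPM in WT and 465 CPM in I173A members. In the other cells Ccr9 led it, and it summed to 400 and 456 CPM. Markers of rearranging DP cells were lower than in the other cells (14.2 against 55.2 CPM in WT and 13.6 against 58.4 CPM in I173A), with Rag2 and Ptcra at 0. The regulatory T cell list, led by Tnfrsf4, summed to 214 CPM in WT and 308 CPM in I173A members against 225 and 278 CPM in the other cells. The invariant NKT list, led by Gata3, summed to 119.7 and 158 CPM against 160.4 and 183 CPM. The part of cells of these 2 kinds in the results was not tested. Barcodes shared with another library, 124 between CD4 SP and CD8 SP and 109 between CD4 SP and DP, included 15 and 13 members, and without them the shares were 20.6% and 16.7%.

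Set against the other CD4 SP cells, the members differed past 1.5-fold in a small share of the measured genes. A gene was counted when its ratio of CPM passed 1.5 and its mean over members and other cells was at least 10 CPM, with the score genes left out. A higher gene under 10 CPM in the other cells could thus enter through its level in the members. How many of all higher genes did so was not counted. In WT 182 of 8009 genes were higher in members (2.27%) and 99 lower (1.24%), and in I173A 176 of 8078 were higher (2.18%) and 159 lower (1.97%). In both genotypes 134 of 7896 were higher (1.7%) and 29 lower (0.367%). Scaled by the median of ratios in place of total UMIs, the counts were 208 higher and 66 lower in WT, 216 and 106 in I173A, and 152 and 22 in both, a larger share of them higher. Of the 134, 72 were on the interferon, MHC class I or Ly6 lists, 4 were cycling markers and 2 maturation genes, and 56 were on none of these lists. The share of each list among all 7896 measured genes was not counted. The lists were chosen with earlier results of these data known. Without cycling cells the count higher in both genotypes was 116.

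**Figure D4:**
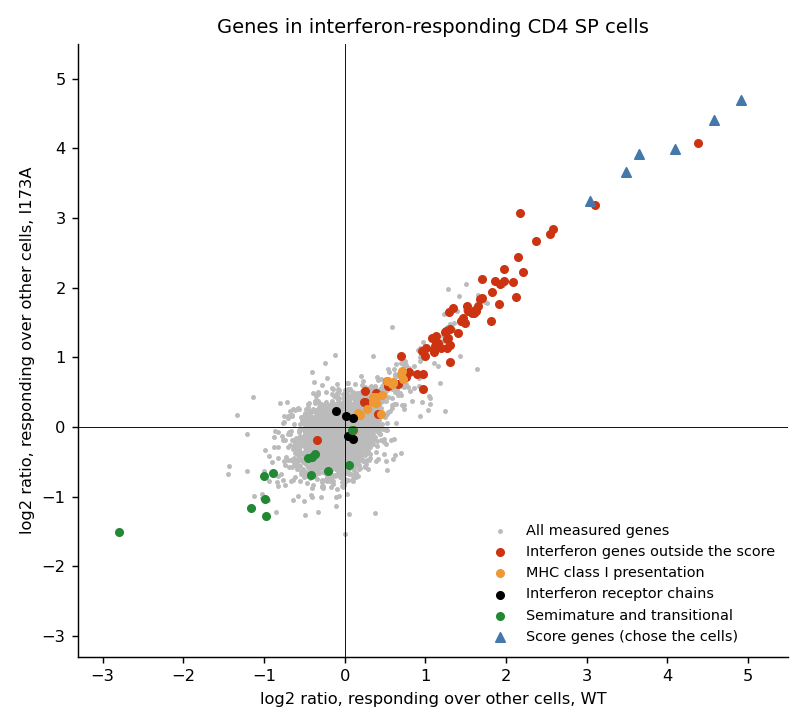
Each point is a gene with a mean of at least 10 CPM in both genotypes, placed by its log2 ratio of responding over other CD4 SP cells in WT (x axis) and in I173A (y axis). Interferon genes outside the score (red) lie along the diagonal at the upper right near the score genes (triangles, which chose the cells), interferon receptor chains (black) lie at 0, and semimature genes (green) lie mostly at the lower left.

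Interferon itself was hardly transcribed in the gate. Of 8 ligand genes only Ifng was detected, with 2 UMIs in the members of each genotype. The receptor was present at similar levels in members and other cells. Ifnar1 was at 78.1 CPM in WT members and 72.3 CPM in the other WT cells, a ratio of 1.08 (0.958 to 1.21), and at 85.5 against 78.0 CPM in I173A, a ratio of 1.10 (0.958 to 1.25). Ifnar2 had ratios of 1.01 and 1.12, and the interferon gamma receptor chain Ifngr1 of 1.03 and 0.914. None of the 5 measured receptor chains passed 1.5-fold in either genotype.

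Downstream of the receptor, Stat2 and Irf9 were higher in members and the kinases Jak1 and Tyk2 were not past 1.5-fold. Stat2 was at 68.3 CPM in WT members against 24.8 CPM in other WT cells (2.75-fold, 2.37 to 3.20) and at 66.5 against 23.7 CPM in I173A (2.80-fold, 2.35 to 3.34). Irf9 was at 184 against 107 CPM in WT (1.72-fold, 1.58 to 1.86) and at 181 against 103 CPM in I173A (1.76-fold, 1.60 to 1.94). Tyk2 had ratios of 0.911 and 0.946 and Jak1 of 0.962 and 1.01. Among the interferon regulatory factors, Irf7, which amplifies the response, was higher, with 417 against 123 CPM in WT (3.39-fold, 3.19 to 3.62) and 382 against 111 CPM in I173A (3.43-fold, 3.18 to 3.70). Irf1 and Irf2 stayed under 1.5-fold (1.43 and 1.29 in WT, 1.30 and 1.35 in I173A), and Irf3, which is held ready in the cytoplasm, had ratios of 1.05 and 0.877.

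Of the antiviral effectors outside the score, 22 of 25 measured genes in each genotype were past 1.5-fold higher and none lower, with a median log2 ratio of 1.83 in WT and 1.84 in I173A. Over all genes tested the medians were -0.07 and -0.08. In 8 (WT) and 9 (I173A) of these genes the other cells were under 10 CPM, so they entered through their level in the members. Ifit3b was at 72.6 CPM in WT members and 3.5 CPM in other WT cells (20.8-fold, 15.6 to 28.1), and at 60.1 and 3.57 CPM in I173A (16.9-fold, 12.2 to 23.6). The oligoadenylate synthetases, which make the activator of RNase L on double-stranded RNA, were higher together: Oas3 by 4.25 and 4.24-fold, Oas2 by 3.92 and 4.26-fold and Oas1a by 4.35 and 3.63-fold in WT and I173A. Their relative without that enzyme activity, Oasl1, was 5.99 and 7.14-fold higher. Eif2ak2, the kinase PKR that stops translation, was 3.77 and 3.40-fold higher.

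At the lower end of the effector list were genes already present in the other cells. Ifi27l2a was at 2283 against 1056 CPM in WT (2.16-fold) and 2298 against 1054 CPM in I173A (2.18-fold). Apobec3, a cytidine deaminase that edits viral DNA, had ratios of 1.33 and 1.14, Samhd1, which lowers nucleotide pools, of 1.19 and 1.28, and the zinc finger protein Zc3hav1 of 1.31 and 1.41. These were the 3 effectors under 1.5-fold in either genotype.

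Sensors of foreign nucleic acid were past 1.5-fold higher in 11 of 13 measured genes in WT and 10 of 14 in I173A. Their median log2 ratios were 1.24 and 1.33, and 12 genes in each genotype had a ratio above 1. In I173A 1 of the 14 measured genes was under 10 CPM in the other cells. The RNA helicase Ifih1 (MDA5) was 3.25 and 3.62-fold higher, its regulator Dhx58 (LGP2) 3.92 and 4.84-fold and Ddx58 (RIG-I) 2.18 and 2.46-fold. Zbp1, a sensor of Z-form nucleic acid, was at 330 against 121 CPM in WT (2.73-fold) and 315 against 110 in I173A (2.86-fold). The adaptor genes of MDA5 and RIG-I (Mavs) and of DNA sensors (Tmem173, STING) were not past 1.5-fold. Mavs had ratios of 0.790 and 0.878 and Tmem173 of 1.08 and 0.966.

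The ISG15 conjugation and ubiquitin ligase list had 14 of 15 measured genes past 1.5-fold higher in WT and 14 of 14 in I173A, with median log2 ratios of 1.30 and 1.19. Of these, 2 (WT) and 1 (I173A) were under 10 CPM in the other cells and entered through their level in the members. Herc6, the mouse ligase that attaches ISG15, was 2.43 and 2.42-fold higher. Uba7, the enzyme that activates ISG15, lay at the low end with 1.44 and 1.57-fold. Trim30a was 3.03 and 3.1-fold higher and the ADP-ribosyltransferase gene Parp14 2.86 and 3.34-fold.

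Interferon-inducible GTPases attack the membranes around intracellular parasites. Of their genes, 13 of 14 measured in WT and 12 of 13 in I173A were past 1.5-fold higher, with median log2 ratios of 1.28 and 1.38. All measured genes of the list had a ratio above 1. In each genotype 2 of these were under 10 CPM in the other cells. Irgm1 was 3.03 and 3.18-fold higher, Igtp 2.47 and 2.66-fold and Gbp2 2.15 and 2.10-fold. Iigp1 was at 58.3 against 13.0 CPM in WT (4.49-fold, 3.74 to 5.41) and at 64.7 against 7.65 CPM in I173A (8.45-fold, 6.65 to 10.8). Its members' levels were alike in the 2 genotypes, while the other cells of I173A were lower than those of WT. Of 5 measured Schlafen genes, 3 in WT and 4 in I173A were past 1.5-fold higher, and all 5 had a ratio above 1 in both. Slfn5 was at 3.08 and 3.17-fold, Slfn8 at 2.98 and 3.1-fold and Slfn1 at 2.41-fold in both. In I173A 1 of the 5 was under 10 CPM in the other cells.

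MHC class I presentation genes differed less. In WT 6 of 17 and in I173A 7 of 18 measured genes were past 1.5-fold higher and none was lower, with median log2 ratios of 0.45 and 0.44. H2-T22 (1.65 and 1.61-fold) and Tap1, a subunit of the peptide transporter (1.62 and 1.70-fold), were among those past it. H2-K1, H2-D1 and B2m, the classical class I chains and their light chain, were at 1.28, 1.21 and 1.38-fold in WT and 1.28, 1.20 and 1.37-fold in I173A. Within the upper maturity tercile these 3 ratios were 1.05, 1.02 and 1.16 in WT and 0.993, 0.982 and 1.12 in I173A. Of the Ly6 surface proteins, 2 of 5 measured genes in WT and 2 of 6 in I173A were past 1.5-fold higher and 1 in each was past it lower. Ly6a (Sca-1) was 2.72 and 2.80-fold and Ly6c1 1.97 and 2.32-fold higher, whereas Ly6c2 had a ratio of 0.457 in WT and 1.35 in I173A and Ly6d of 0.916 and 0.262.

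Feedback inhibitors other than Usp18 were not among the higher genes. None of the 7 measured genes on that list passed 1.5-fold in either direction. Socs1, which blocks JAK kinases, was at 158 CPM in WT members against 160 CPM in other WT cells (0.984, 0.906 to 1.07) and at 167 against 164 CPM in I173A (1.02, 0.928 to 1.12). Within the upper maturity tercile, however, its ratios were 1.41 and 1.5. Ptpn6 had ratios of 0.956 and 0.947.

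Several genes outside the lists fixed for the pathway stood among the 134, and were named after their values were seen. The helicase gene Ddx60 was 2.81 and 3.20-fold higher, Daxx, a chaperone of histone H3.3, 2.63 and 3.16-fold, and Pml, the scaffold of nuclear bodies that hold Daxx, 2.5 and 2.64-fold. Lgals3bp was 2.57 and 2.81-fold higher, Lgals9 1.64 and 1.74-fold and the RNA-editing enzyme Adar 1.68 and 1.93-fold. The adhesion molecule gene Jaml was at 25 against 6.42 CPM in WT (3.89-fold) and 21.5 against 5.20 CPM in I173A (4.12-fold). It was under 10 CPM in the other cells of both genotypes, so it entered through its level in the members. The 134 also held 4 of the 8 fixed cycling markers. Cdc20, Hmmr and Plk1, which act in mitosis, were likewise named after their values were seen: Cdc20 was 2.41 and 2.70-fold, Hmmr 2.44 and 1.91-fold and Plk1 2.27 and 1.55-fold higher. Cells with 3 or more UMIs of 8 cycling markers were 4.05% of WT members (26 cells) and 4.29% of I173A members (19 cells), against 2.59% and 2.07% of the other cells. The part of cell depth in that difference was not tested.

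Genes lower in the members included 6 of the semimature and transitional list among the 29, and few of the 29 kept their difference among mature cells. The semimature and transitional list had 6 of its 13 measured genes past 1.5-fold lower in WT and 8 of 13 in I173A, with median log2 ratios of -0.45 and -0.66. The chemokine receptor gene Ccr9 was at 115 CPM in WT members against 256 CPM in other WT cells (0.449, 0.410 to 0.491) and at 144 against 322 CPM in I173A (0.447, 0.406 to 0.492). Itm2a was at 688 against 1363 CPM in WT and 865 against 1776 CPM in I173A. Dntt, which adds bases at V(D)J junctions, was at 13.3 against 29.9 CPM and 12.4 against 28.1 CPM. In the upper maturity tercile 2 of the 29 genes remained past 1.5-fold lower and 12 kept their direction in both genotypes. The ratio of Ccr9 there was 1.44 and 0.976, and that of Itm2a 1.05 and 1.03. The index uses Ccr9, Cd24a, Itm2a, Tox, Sox4, Cd8a and Cd8b1, so those genes are bounded within its terciles. All 134 higher genes kept their direction in the upper tercile in both genotypes and 104 stayed past 1.5-fold in both. The 134 and the 29 were picked in the whole gate, whose cells include those of the upper tercile. A kept direction there is thus partly built in and is no independent check. Genes of the index, such as Ccr9 and Itm2a, are among the 29, so the 134 and the 29 cannot be set against each other in that tercile. Over all 7896 genes, 117 were past 1.5-fold higher (1.48%) and 27 lower (0.342%) in that tercile in both genotypes.

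Genes of maturation and egress differed less. Klf2, the factor that opens the egress programme, was at 796 against 594 CPM in WT (1.34-fold) and 774 against 575 CPM in I173A (1.35-fold), and at 1.05 and 1.04-fold in the upper tercile. Ms4a4b (1.67-fold in both) and Ms4a6b (1.66 and 1.61-fold) were the only 2 of 18 list genes past 1.5-fold. The lists of TCR signal genes leaned lower, with median log2 ratios of -0.33 and -0.35 over 16 measured genes, of which 1 in WT and 3 in I173A were past 1.5-fold lower and 1 in I173A, Gadd45b (1.56), was past it higher. Nr4a1, an immediate target of TCR signalling, was at 111 against 163 CPM in WT (0.682, 0.620 to 0.749) and 145 against 247 CPM in I173A (0.587, 0.532 to 0.646). In the upper tercile its ratios were 0.857 and 1.03. Cd5, whose level tracks the strength of self-recognition, had ratios of 0.840 and 0.800, and 1.01 and 0.979 in the upper tercile.

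The TCR of the members was diverse. A productive α chain (TRA) was found in 92.1% of WT and 91.4% of I173A members, against 88.3% and 88.6% of the other cells, and a productive β chain (TRB) in 94.9% and 96.2% against 93.7% and 94.4%. The invariant TRAV11-TRAJ18 pair of NKT cells was carried by 1.52% of WT members with TRA (9 of 591) and 1.73% of I173A members (7 of 405), against 1.65% and 1.52% of the other cells. Of 583 WT members with both chains 5 shared a clonotype with another cell, and none of 404 I173A members did, which allows up to 0.743%. The largest clonotype in either genotype was 2 cells. Of 14 TRAV, 36 TRAJ, 19 TRBV and 12 TRBJ segments with enough chains, none had an interval of its usage ratio off 1 in the same direction in both genotypes. Mean CDR3 lengths were 13.5 residues in WT and 13.6 in I173A members for TRA, against 13.5 in both genotypes' other cells. Cells with 2 or more productive TRB, which include doublets, were 6.40% of WT and 8.45% of I173A members with TRB, against 5.80% and 4.68%; without them the responding shares were 20.5% and 16.1%.

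The responding cells of the 2 genotypes were then set against each other. In members 154 of 7979 genes were past 1.5-fold higher in I173A than WT (1.93%) and 79 lower (0.99%), and in the other cells 38 of 8102 were higher (0.469%) and 18 lower (0.222%). Members hold fewer UMIs (4804111 in WT and 3308873 in I173A, against 15730579 and 13457571), and their ratios have wider counting intervals. Cpt1a, which brings fatty acids into mitochondria, was at 8.95 CPM in WT and 40.2 CPM in I173A members (4.49-fold, 3.16 to 6.49), and 4.63-fold higher in the other cells. It was seen in 36 of 642 WT and 104 of 443 I173A members. The glucocorticoid-responsive genes Tsc22d3 and Ddit4 were 2.52 and 2.13-fold higher in I173A members, against 2.22 and 2.16-fold in the other cells. Jun was at 42.5 CPM in WT and 13.0 CPM in I173A members (0.306, 0.215 to 0.427), against a ratio of 0.380 in the other cells, and the heat shock gene Hsph1 had ratios of 0.462 and 0.367. On the list of 12 genes that separate the genotypes across the gate, 9 were past 1.5-fold higher and 3 lower in members. That list was drawn from these same cells, so it is no independent evidence of direction.

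**Figure D5:**
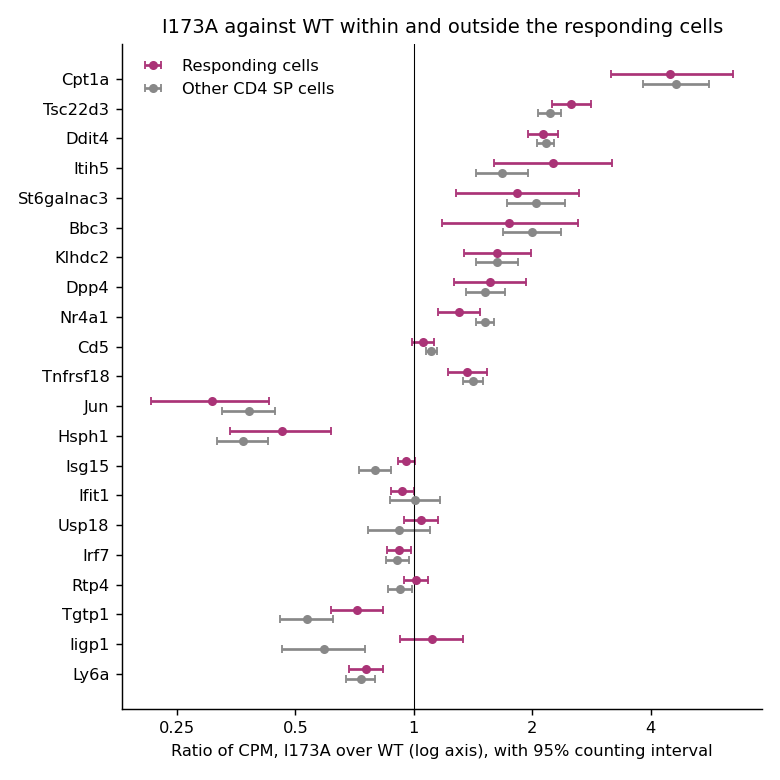
Ratio of CPM of I173A over WT for selected genes, in responding cells (purple) and in the other CD4 SP cells (grey), on a log axis with 95% counting intervals. Cpt1a, Tsc22d3, Ddit4, Jun and Hsph1 lie on the same side of 1 and at like distances in both sets. Isg15, Ifit1 and Usp18 are score genes, so their ratios near 1 in responding cells follow from the rule.

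Interferon genes were then compared between I173A and WT members. Members of both genotypes had passed the same cut on the score, so the like levels of the score genes themselves (Isg15 at 898 CPM in WT and 860 CPM in I173A) are set by the rule, and genes that follow the score are partly bound by it too. The median log2 ratios of I173A over WT members were 0.03 for effectors, -0.05 for sensors, -0.09 for the ISG15 conjugation list, -0.16 for the GTPases and 0.06 for Schlafen genes, against 0.02 over all genes tested. Ifitm3, at 20.4 and 33.8 CPM (1.66-fold, 1.25 to 2.20), was the only gene of these 5 lists past 1.5-fold. Genes lower in I173A members by less included Tgtp1 (0.716, 0.614 to 0.833), Tgtp2 (0.721), Gbp2 (0.699) and Ly6a (0.754, 0.683 to 0.833). The same 4 genes had ratios of 0.534, 0.677, 0.715 and 0.732 in the other cells, where all 12 measured GTPases were below 1 and Tgtp1 and Iigp1 (0.590) passed 1.5-fold.

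Several of the other genes with the largest genotype ratios in members had most of their UMIs in a handful of cells. Nrgn was 3.05-fold higher in I173A members, but 70.6% of its WT and 64.4% of its I173A UMIs came from the 5 cells with the most. Cd8a (3.27-fold) had 62.5% and 72.2% of its UMIs in 5 cells, and Gadd45b (2.39-fold) 75.2% in I173A, where 1 cell held 41 UMIs. Lgals3, at 0.167 of the WT level, had 85.1% of its WT UMIs in 5 cells. The chemokine receptor genes Cxcr3 (0.308) and Cxcr6 (0.408), known from innate-like T cells, had 63.6% and 56.3% of their WT UMIs in 5 cells. By contrast the UMIs of Casc4 (2.72-fold, in 24 WT and 43 I173A members), Prnp (2.38-fold, in 23 and 29 members), Eps8l1 (2.30-fold, in 23 and 33 members) and Hist1h2ac (0.377, in 65 and 23 members) were less concentrated. Their 5 top cells held from 15.6% (Casc4 in I173A) to 31.7% (Prnp in I173A) of the UMIs. Nrgn was seen in 25 of 642 WT and 30 of 443 I173A members.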

How the data were processed

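The authors deposited raw UMI counts per gene and cell barcode, with hashtag counts in the same matrices, and productive TCR contigs. Per the submitters' processing notes, Cell Ranger 6.0.1 and GRCm38 (mm10) were used. The matrix headers name software version 3.1.0. The members and gene lists were chosen with earlier results of these data known.

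Barcodes with at least 500 genes, at most 10% mitochondrial UMIs and 1 hashtag with at least 10 counts and 4 times every other were kept, which drops doublets between hashtags but not within 1 genotype; no doublet caller was run. Hashtag 5 has no genotype in the labels and was left out of the groups; its shares are given as values. UMIs were summed per genotype and set and divided by the total (CPM, Python 3.11.15, numpy 2.4.6, scipy 1.17.1, pandas 2.3.3). Sums carry exact Poisson, ratios exact conditional and shares exact Clopper-Pearson 95% intervals. Only the ratio intervals were tried on simulated data, drawn as Poisson counts of whole groups. Clumping of UMIs in few cells, as for Lgals3, was not simulated, so that trial says nothing of it. No test was run, as there was 1 sample per genotype.

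The genes named were the 6 score genes; outside the score, the 20 highest and 10 lowest ratios of members to other cells by the genotype nearer 1, from 20 CPM; the 8 highest and 8 lowest ratios of I173A to WT members with at least 60 UMIs and an interval off 1; and up to 4 high and 2 low members of each of 19 lists. Left out of these ranks were segment genes of TCR and immunoglobulin, mitochondrial, ribosomal and haemoglobin genes, and genes with clone names. Genes named for other reasons are marked as such or belong to small lists. Gene positions and promoters are from RefSeq GRCm38.p6, matched by symbol. Some withheld items are not reported here.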

Additional observations from a re-analysis of the deposited data

Results flagged for a closer look

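Only the named genes were searched for ratios of members to the other CD4 SP cells that went opposite ways in the 2 genotypes. For 4 of them both intervals left out 1, on opposite sides. The share over all measured genes was not counted, and the difference between genotypes was not tested. Gadd45b had a ratio of 0.77 in WT and 1.56 in I173A, Lgals3 of 2.11 in WT and 0.429 in I173A, Ly6c2 of 0.457 in WT and 1.35 in I173A, and Tnfrsf9 of 0.778 in WT and 1.3 in I173A. The first 3 had much of their RNA in few cells: 75.2% of the Gadd45b UMIs of I173A members, 85.1% of the Lgals3 UMIs of WT members and 81.8% of the Ly6c2 UMIs of WT members came from 5 cells each. For Ly6c2 in I173A members it was 94.3%, with 50 of 87 UMIs in 1 cell.

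Hashtag 5 also marks cells, and the labels tie it to no genotype. Its cells reached a score of 5 in 24.3% of the CD4 SP gate (688 of 2829 cells, 22.7 to 25.9) and 21.4% of the CD8 SP gate (587 of 2745 cells, 19.9 to 22.97), beside WT shares of 20.6% and 16.8%. In the DP gate the share was 1.16%, beside 0.596% in WT. Thinned to 3000 UMIs the hashtag 5 shares were 23.1% and 19.97% in the CD4 SP and CD8 SP gates, and the difference from WT was not tested.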

How the results depend on the processing

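No paired analysis was possible because each genotype was 1 sample per gate. Of 136 alternative values for shares and counts, 84 stayed within their limits and 52 moved. Shares and counts had no direction to reverse. Only the 16 alternatives of the ratio of shares could reverse, and 0 of them did. The responding share in WT and I173A was 30.0% and 24.9% with a threshold of 3 UMIs, 13.9% and 10.4% with 8, 16.9% and 13.2% without Ifit1, 10.4% and 8.71% without Isg15, 19.04% and 15.0% without Usp18, and 26.2% and 22.4% in the upper maturity tercile. Genes higher in members in WT, in I173A and in both numbered 79, 86 and 73 at 50 CPM, 1356, 1280 and 417 with no filter on level, and 94, 88 and 75 at a fold of 2. In I173A they numbered 268 in the upper tercile. Genes lower in members in WT, in I173A and in both numbered 211, 330 and 61 at 5 CPM, 8, 15 and 6 at 50 CPM, 1185, 1102 and 308 with no filter, 16, 24 and 5 at a fold of 2, and 196, 243 and 47 as a mean over cells. They numbered 155 (WT) and 294 (I173A) in the upper tercile, and 266 in I173A for members with a score of 8. Genes higher and lower in I173A than WT members numbered 307 and 190 at 5 CPM, 11 and 4 at 50 CPM, 1082 and 802 with no filter, 18 and 14 at a fold of 2, 363 and 295 in the upper tercile, and 258 and 191 with a score of 8. Upper terciles hold fewer UMIs; the other causes were not tested.

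Of 5144 alternative values for lists and named genes, 21 reversed. A value could count as reversed only where its main ratio was past 1.5-fold in either direction. In the upper tercile the ratio of members to the other cells became 1.85 for Ccr4, 1.44 for Ccr9, 1.44 for Chl1, 1.20 for Hivep3, 1.05 for Itm2a and 7.56 for Nrgn in WT. In I173A it became 2.66 for Cd24a, 1.58 for Chl1, 1.04 for Dntt, 1.503 for Fos, 0.627 for Gadd45b, 1.03 for Itm2a, 1.03 for Nr4a1, 1.08 for Ptov1 and 1.76 for Zcchc12. The ratio of I173A to WT members there became 0.813 for Cd8a, 1.54 for Fos and 0.305 for Gadd45b. Hist1h2bb in I173A became 1.03 as a mean over cells and 1.33 without cycling cells, and Ahnak between genotypes 1.04 with a score of 8. The cause was not tested.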
